A study of Mus musculus with 19 samples.

Results

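The 10 genes described here are expressed by macrophages and other myeloid cells: Spi1, Csf1r, Cx3cr1, Ptprc, Mrc1, Tyrobp, Fcer1g, Aif1, Lyz2 and Mpo. They were chosen by name, all 10 were found among the 23337 gene symbols of the expression tables, and each is represented by its RefSeq transcript with the highest mean count. Spi1 is listed in the tables under its older symbol Sfpi1 and was matched by its transcript identifier. RNA-seq of mouse tissue and cultures gave 11 libraries. They comprised 1 of E12.5 yolk sac endoderm (ysE), 2 each of E9.25 ysE, E9.25 mesoderm of the visceral yolk sac (VYS) and E12.5 fetal liver, all from FVB embryos, and 4 of cystic embryoid bodies (EBs). Cystic EBs are fluid-filled aggregates grown from mouse embryonic stem (ES) cells, here of C57BL/6x129 clones (A and B for the replicate letters) at day 10 (d10) and day 15 (d15) of differentiation. The yolk sac layers of both stages were separated by hand after treatment with the enzyme DispaseII, for longer at E12.5 than at the earlier stage. No such treatment is described for liver. The mesoderm kept its blood vessels. Each tissue sample pooled whole litters, and each EB clone is a single ES cell line. Tissue replicates are therefore separate pools. The 4 cystic EB libraries come from 2 clones, each taken at d10 and d15, so tests against cystic EBs treat repeated samples of a clone as independent. The E12.5 ysE arm has a single library, so in its tests the spread is estimated from the other tissues and that library is assumed to vary like them.

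Macrophages arise early in development from yolk sac progenitors, before blood stem cells are active, and the fetal liver later becomes a main site of blood formation. Spi1 encodes the transcription factor PU.1, which is needed for the myeloid lineage. Macrophages survive on signals through the receptor Csf1r, carry Mrc1, Cx3cr1 and Ptprc (CD45) on their surface, and pass signals of activating receptors through the adaptors Tyrobp and Fcer1g. Aif1, also called IBA1, binds actin, Lyz2 is a bacteria-degrading lysozyme, and Mpo is a peroxidase stored in the granules of neutrophils and their progenitors.

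Counts summed over transcripts were 40453779 to 169981821 per library. Levels are given as the authors' RPKM (read counts scaled by transcript length and library size), and differences as log2 fold changes from edgeR's quasi-likelihood test on the counts, with the Benjamini-Hochberg adjustment over all 24858 transcripts tested, called at an FDR of 5%. Liver and clone A were prepared with ScriptSeq and E9.25 ysE, mesoderm and clone B with a dUTP protocol, while E12.5 ysE alone was prepared without strand information. In liver against mesoderm, tissue, stage, enzyme treatment and protocol therefore cannot be told apart. A term for library protocol, tried as an alternative, rests on clone A against clone B, so it also carries the difference between clones. In these whole tissues fewer cells of a type and less RNA per cell cannot be told apart either. The endoderm gene Amn stood at 212 RPKM in E9.25 ysE, 115 in E12.5 ysE and 25.7 in mesoderm, and albumin (Alb), made by hepatocytes, at 562 RPKM in liver and 0.0585 in mesoderm.

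Mesoderm and liver held most of the members' RNA. The 10 genes together took 358 and 379 CPM (counts scaled to the library total) in the mesoderm libraries and 214 and 264 in the liver libraries, against 4.34 to 37.5 in the other 7. The make-up differed between those tissues. Mrc1 alone made up 80.0% and 74.6% of the summed RPKM of the 10 genes in mesoderm and at most 12.498% in either liver library, where Lyz2 and Mpo held the larger parts.

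**Figure D1:**
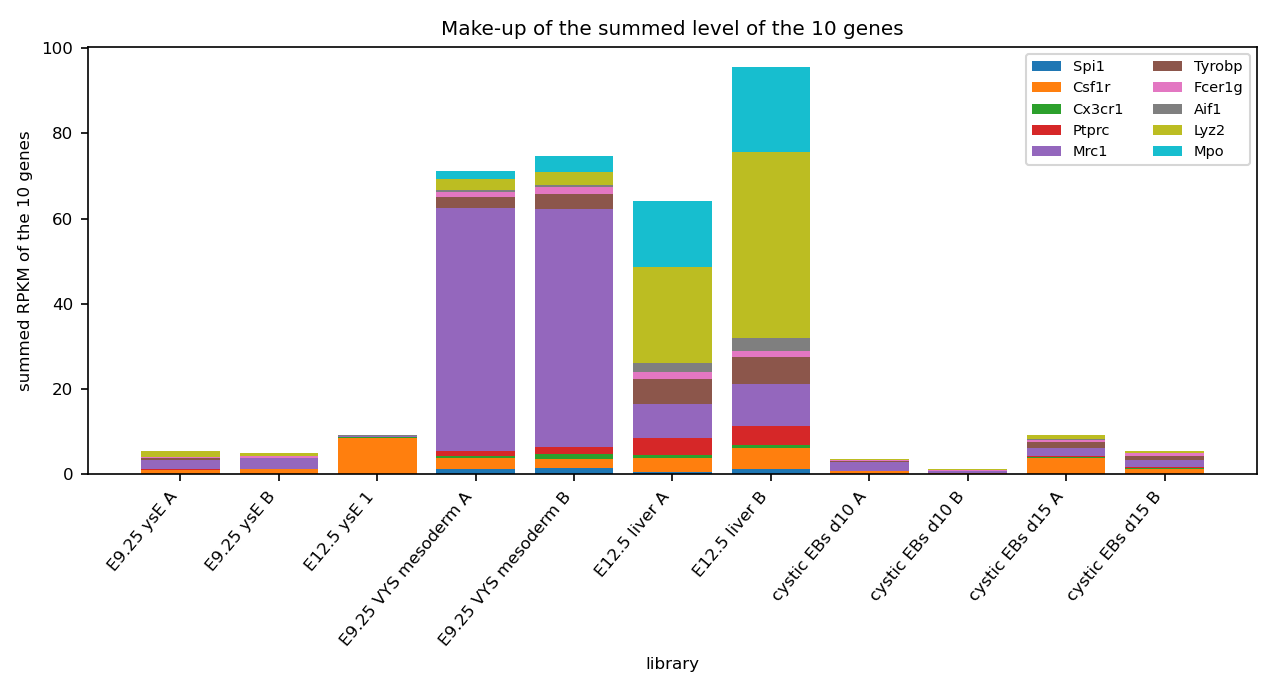
Summed RPKM of the 10 genes (bars from 0, 1 per library) split by gene. The mesoderm bars reach 71.2 and 74.8 and are mostly Mrc1, the liver bars reach 64.2 and 95.5 and are mostly Lyz2 and Mpo, and E12.5 ysE reaches 9.29, nearly all of it Csf1r.

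**Figure D2:**
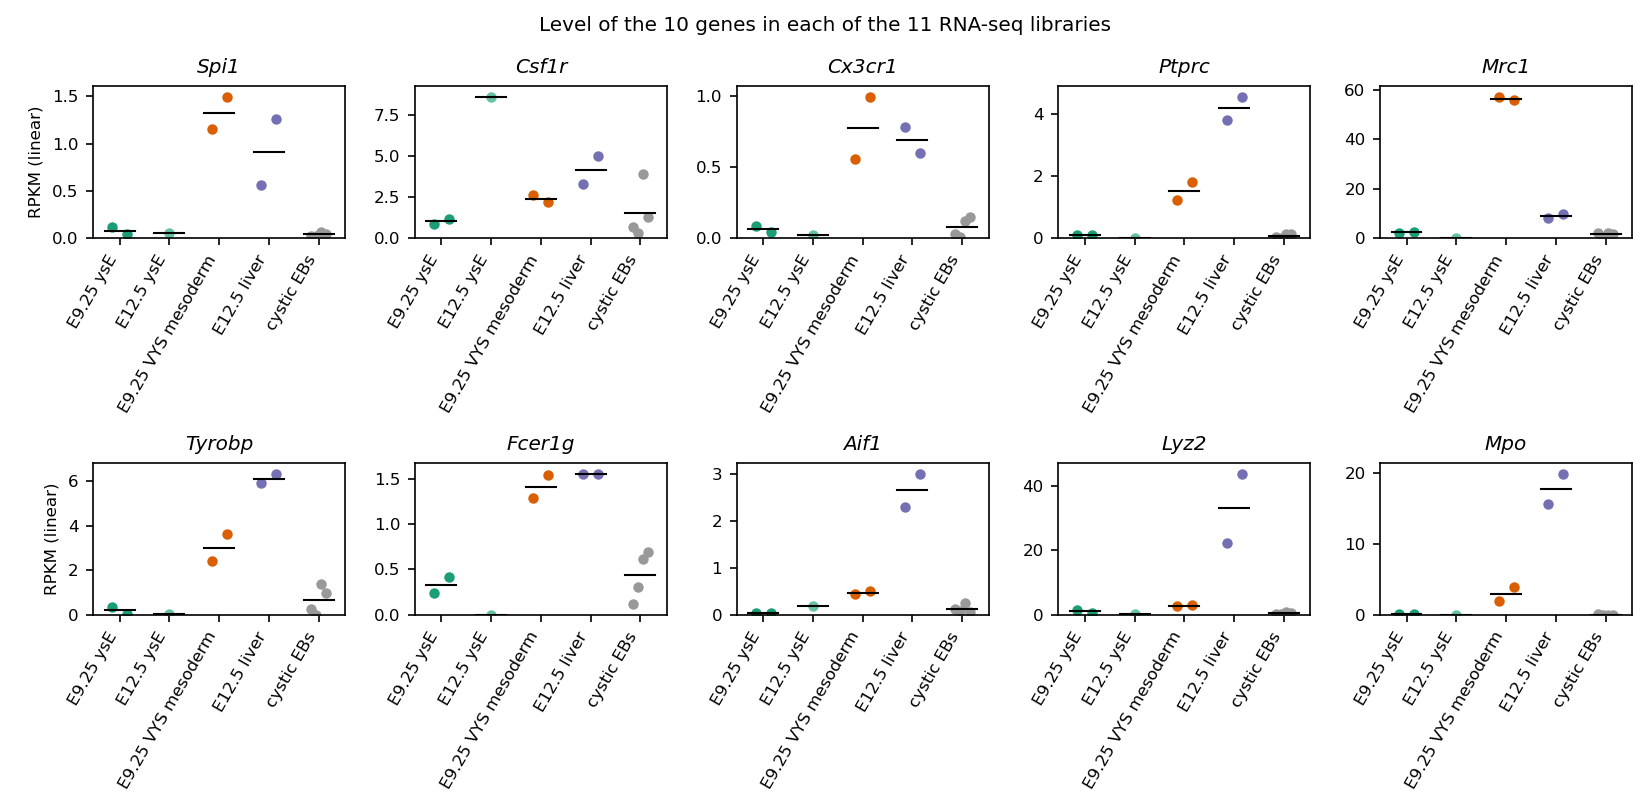
RPKM on a linear axis (y) of each gene in every library (points) of the 5 tissues (x), with the tissue mean as a black line. Spi1, Cx3cr1, Ptprc, Mrc1, Tyrobp, Fcer1g, Aif1, Lyz2 and Mpo all have their highest mean in mesoderm or liver, while Csf1r has its own in E12.5 ysE.

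The lineage regulator Spi1 (mm10 chr2:91082374-91115759) stood at 1.15 and 1.49 RPKM in mesoderm and at 0.562 and 1.26 RPKM in liver, ranges that overlapped. It stood at 0.113 and 0.046 RPKM in E9.25 ysE, at 0.052 in E12.5 ysE and at 0.024 to 0.066 in cystic EBs (median 0.037). Mesoderm was higher than E9.25 ysE by 3.75 ± 0.715 on the log2 scale (SE; edgeR's quasi-likelihood test, adjusted p = 0.00383), and no library of the lower 3 groups reached the range of the upper 2. Liver against mesoderm gave a log2 fold change of -0.35 ± 0.630 that did not pass the same edgeR test (adjusted p = 0.685). The level in E12.5 ysE rests on 3 counts.

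Of the receptors, Csf1r, which binds the growth factors CSF1 and IL-34, had the only pattern with its highest level outside mesoderm and liver. It was at 8.59 RPKM in the single E12.5 ysE library, 3.31 and 4.99 in liver, 2.63 and 2.20 in mesoderm, 0.884 and 1.15 in E9.25 ysE, and 0.325 to 3.88 in cystic EBs, with a median of 0.961. E12.5 ysE, liver, mesoderm and E9.25 ysE did not overlap each other, while the cystic EBs spanned the range from below E9.25 ysE into liver. None of the 6 comparisons between tissues called it, by edgeR's quasi-likelihood test. The difference between E12.5 and E9.25 ysE was 2.99 ± 1.07 on the log2 scale, and 2.88 to 3.23 over the alternatives. It was not called in that edgeR fit, a result kept in 12 of 16 alternatives. DESeq2, the fit with the EB clones as separate groups, that without d15 clone A and that of only these groups called it. E12.5 ysE had no replicate in any of these fits. That E12.5 ysE library held 1435 Csf1r counts and, of the other 9 members, 57 counts of Mrc1 and 0 to 7 of each of the rest. It also stands alone in its library protocol, and its enzyme treatment was longer than that of E9.25 ysE. Stage, protocol and treatment therefore cannot be told apart for this gene.

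Cx3cr1 (chr9:120048683-120068296), the receptor of the chemokine CX3CL1, was low in every library. It reached 0.559 and 0.989 RPKM in mesoderm and 0.777 and 0.601 in liver, overlapping ranges, and stayed between 0.007 and 0.149 RPKM in the other 7 libraries. Mesoderm exceeded E9.25 ysE by 3.32 ± 1.09 on the log2 scale (edgeR's quasi-likelihood test, adjusted p = 0.0439), a call lost when either library of E9.25 ysE, mesoderm or liver was left out (edgeR adjusted p = 0.127 without E9.25 ysE A and 0.223 without E9.25 ysE B).

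On the surface of all white blood cells, Ptprc (chr1:138062859-138175756) encodes the phosphatase CD45. It was at 3.802 and 4.52 RPKM in liver, 1.23 and 1.79 in mesoderm, 0.115 and 0.113 in E9.25 ysE, 0.016 in E12.5 ysE and 0.015 to 0.145 in cystic EBs. Liver and mesoderm ranges did not overlap, yet the difference of 1.66 ± 0.815 on the log2 scale did not pass (edgeR's quasi-likelihood test, adjusted p = 0.133). Mesoderm exceeded E9.25 ysE by 3.41 ± 0.880 (log2 scale, edgeR adjusted p = 0.0162), a call lost without E9.25 ysE A, without E9.25 ysE B or without mesoderm B.

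The mannose receptor Mrc1 (chr2:14229414-14332023) takes up glycoproteins and is carried by macrophages and by the endothelium of sinusoids. It was the most abundant member in mesoderm, at 57.0 and 55.8 RPKM, with 8.02 and 9.72 in liver, 2.18 and 2.49 in E9.25 ysE, 0.356 to 2.19 in cystic EBs and 0.249 in E12.5 ysE. Mesoderm, liver and E9.25 ysE did not overlap. Mesoderm exceeded E9.25 ysE by 4.27 ± 0.697 on the log2 scale (edgeR's quasi-likelihood test, adjusted p = 0.00175), and liver was lower than mesoderm by 2.47 ± 0.643 (log2 fold change -2.47, edgeR adjusted p = 0.0149). With library protocol as a term, resting on the EB clones and their difference, the liver difference was -3.56 (edgeR adjusted p = 0.00551). It was called with all libraries and lost without mesoderm A, mesoderm B, liver A or liver B. Endothelial markers moved in the same directions as Mrc1, as did mesenchymal and smooth muscle markers. Beside 16.9% of all transcripts called higher in mesoderm and 21% called lower in liver, all 8 of the list (Kdr, Pecam1, Cdh5, Tek, Tie1, Emcn, Stab1 and Stab2) were higher in mesoderm than in E9.25 ysE and 6 were lower in liver than in mesoderm, with summed levels of 249.7 to 271 RPKM in mesoderm, 51.1 to 58.2 in liver, 11.01 to 15.7 in E9.25 ysE and 8.77 to 49.3 in cystic EBs. Of the mesenchymal and smooth muscle markers, 4 of 5 were higher in mesoderm than in E9.25 ysE and 4 of 5 lower in liver than in mesoderm. Their summed levels were 637 to 646 RPKM in mesoderm, 54.8 to 72.3 in liver and 23.7 to 39.7 in E9.25 ysE. The part of either kind of cell in the Mrc1 result was not tested.

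The 2 adaptors carry signals of activating receptors. Tyrobp (chr7:30413782-30417582) was at 5.92 and 6.34 RPKM in liver, 2.40 and 3.63 in mesoderm, 0.355 and 0.039 in E9.25 ysE, 0.041 in E12.5 ysE and 0 to 1.39 in cystic EBs. Its libraries in mesoderm and E9.25 ysE did not overlap, but the difference of 3.65 ± 1.57 on the log2 scale did not pass (edgeR's quasi-likelihood test, adjusted p = 0.109). Fcer1g (chr1:171229572-171234349) had close values in liver and mesoderm, with 1.56 and 1.55 RPKM in liver and 1.29 and 1.54 in mesoderm, and stood below both elsewhere, with 0.242 and 0.415 in E9.25 ysE, 0.120 to 0.698 in cystic EBs and 0 counts in E12.5 ysE. Mesoderm against E9.25 ysE gave 1.78 ± 0.737 on the log2 scale, which did not pass (edgeR's quasi-likelihood test, adjusted p = 0.0976).

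The effectors Aif1, Lyz2 and Mpo were called higher in liver than in mesoderm with all libraries in the fit. None of the 3 was called without mesoderm A, without mesoderm B, without liver B or with library protocol as a term. Aif1 (chr17:35170986-35176083) was at 2.29 and 2.995 RPKM in liver, 0.438 and 0.504 in mesoderm, 0.038 in both E9.25 ysE libraries, 0.186 in E12.5 ysE (7 counts) and 0.064 to 0.240 in cystic EBs. Liver exceeded mesoderm by 2.68 ± 0.661 on the log2 scale (edgeR's quasi-likelihood test, adjusted p = 0.0119), and by 1.19 with the protocol term (edgeR adjusted p = 0.246). Mesoderm exceeded E9.25 ysE by 3.27 ± 0.733 (edgeR adjusted p = 0.00844), a call that rests on 10 counts in E9.25 ysE and was lost without either of its libraries.

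Lyz2 (chr10:117277541-117282272) was at 22.3 and 43.7 RPKM in liver, the highest level of any member in that tissue, and 2.56 and 2.98 in mesoderm, 1.36 and 0.628 in E9.25 ysE, 0.132 in E12.5 ysE and 0.058 to 0.826 in cystic EBs. Liver exceeded mesoderm by 3.77 ± 0.955 on the log2 scale (edgeR's quasi-likelihood test, adjusted p = 0.0133), and by 2.59 with the protocol term (edgeR adjusted p = 0.114). The difference between mesoderm and E9.25 ysE, 1.17 ± 0.877, did not pass (edgeR adjusted p = 0.355), although the libraries did not overlap. Its near-identical neighbour Lyz1 reached at most 0.114 RPKM in any library, and reads shared between both genes could be assigned to either.

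Mpo (chr11:87793784-87804412) was at 15.7 and 19.9 RPKM in liver, 1.97 and 3.88 in mesoderm, 0.063 and 0.153 in E9.25 ysE, 0 in E12.5 ysE and 0 to 0.062 in cystic EBs. Liver exceeded mesoderm by 2.79 ± 0.837 on the log2 scale (edgeR's quasi-likelihood test, adjusted p = 0.0264), and mesoderm exceeded E9.25 ysE by 4.43 ± 0.919 (edgeR adjusted p = 0.00579), a call lost without E9.25 ysE A. With library protocol as a term, estimated from EB clones that hold 0 to 10 Mpo counts each, the liver difference was -0.21 (edgeR adjusted p = 0.882).

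The 250 bases before the RefSeq start (GRCm38.p6) are shown for Mrc1, highest in mesoderm, and for Lyz2 and Mpo, highest in liver. Capitals mark matches on either strand to GAGGAA, a core recognised by PU.1, TTGCNNAA, a C/EBP core, or TGTGGT, a RUNX core, motifs chosen after the sequences had been seen.
Mrc1 (chr2:14229164-14229413, + strand): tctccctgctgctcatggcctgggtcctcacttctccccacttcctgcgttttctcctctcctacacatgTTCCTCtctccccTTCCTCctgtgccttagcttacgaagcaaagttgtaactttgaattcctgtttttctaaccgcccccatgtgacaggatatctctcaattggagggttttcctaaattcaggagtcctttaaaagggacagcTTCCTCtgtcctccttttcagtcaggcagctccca
Lyz2 (chr10:117282273-117282522, - strand): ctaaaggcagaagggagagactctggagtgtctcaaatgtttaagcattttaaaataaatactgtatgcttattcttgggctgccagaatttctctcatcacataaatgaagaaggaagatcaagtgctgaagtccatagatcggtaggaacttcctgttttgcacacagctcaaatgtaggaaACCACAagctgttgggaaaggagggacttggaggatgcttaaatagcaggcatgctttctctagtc
Mpo (chr11:87793534-87793783, + strand): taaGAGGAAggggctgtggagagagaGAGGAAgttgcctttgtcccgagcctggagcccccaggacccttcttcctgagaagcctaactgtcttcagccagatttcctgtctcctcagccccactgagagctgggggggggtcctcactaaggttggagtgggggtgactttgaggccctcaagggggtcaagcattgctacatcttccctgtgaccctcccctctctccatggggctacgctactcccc
The Mrc1 window held 3 matches to GAGGAA (all read on the opposite strand), Mpo held 2 and Lyz2 held 1 match to TGTGGT. No TTGCNNAA was found in these windows. Matches on either strand occurred in 23.3% of all 32851 RefSeq promoter windows of this length for GAGGAA, 9.56% for TTGCNNAA and 14.0% for TGTGGT, and they are descriptions and not sites. RefSeq starts were found for 7 of the 10 genes, and Csf1r, Tyrobp and Spi1 had none in the table used.

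In the comparison of E9.25 mesoderm with E9.25 ysE, which asks how the myeloid genes divide between the layers of the yolk sac, 6 of 10 members were higher and none lower. They were Mrc1, Spi1, Mpo, Aif1, Ptprc and Cx3cr1. Over all transcripts 16.9% were called higher and 13.7% lower. The members' median log2 fold change was 3.37, against 0.05 over all transcripts tested. All 10 members had both mesoderm libraries above both of E9.25 ysE, as had 50.9% of all transcripts tested, while 27.1% had both below. Mrc1 and Spi1 were called in every setting tried. Without E9.25 ysE A or B, which leaves a single library in that group, the other calls were lost, save Mpo without E9.25 ysE B. Fewer of all transcripts were called in those fits too. The fit of only the 4 mesoderm and E9.25 ysE libraries called all 10 higher, beside 6620 of 21824 transcripts higher and 6540 lower. Tyrobp was also called without d10 clone B and Fcer1g without d10 clone A.

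In liver against mesoderm, which sets the later site of blood formation against the earlier one, Lyz2, Mpo and Aif1 were higher and Mrc1 lower, 3 and 1 of 10 members, beside 17.8% of transcripts called higher and 21% lower. The median over members was 1.10 on the log2 scale, against -0.09 over all transcripts. In RPKM both liver libraries lay above both of mesoderm for 7 members and 31.5% of all transcripts. They lay below for Mrc1 and 47% of all transcripts. Spi1, Csf1r, Cx3cr1, Ptprc, Tyrobp and Fcer1g were not called. Without mesoderm A, mesoderm B or liver B, each leaving a single library in a group, no member kept its call. Without liver A, Lyz2 and Aif1 kept theirs. Fewer of all transcripts were called in each of these fits too. With library protocol as a term Mrc1 alone passed, beside 3385 of 24858 transcripts higher and 4206 lower. The fit of only the 4 liver and mesoderm libraries also called Csf1r, Ptprc and Tyrobp higher, beside 6277 of 22281 transcripts higher and 7091 lower. Ptprc was also called higher without d10 clone B.

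**Figure D3:**
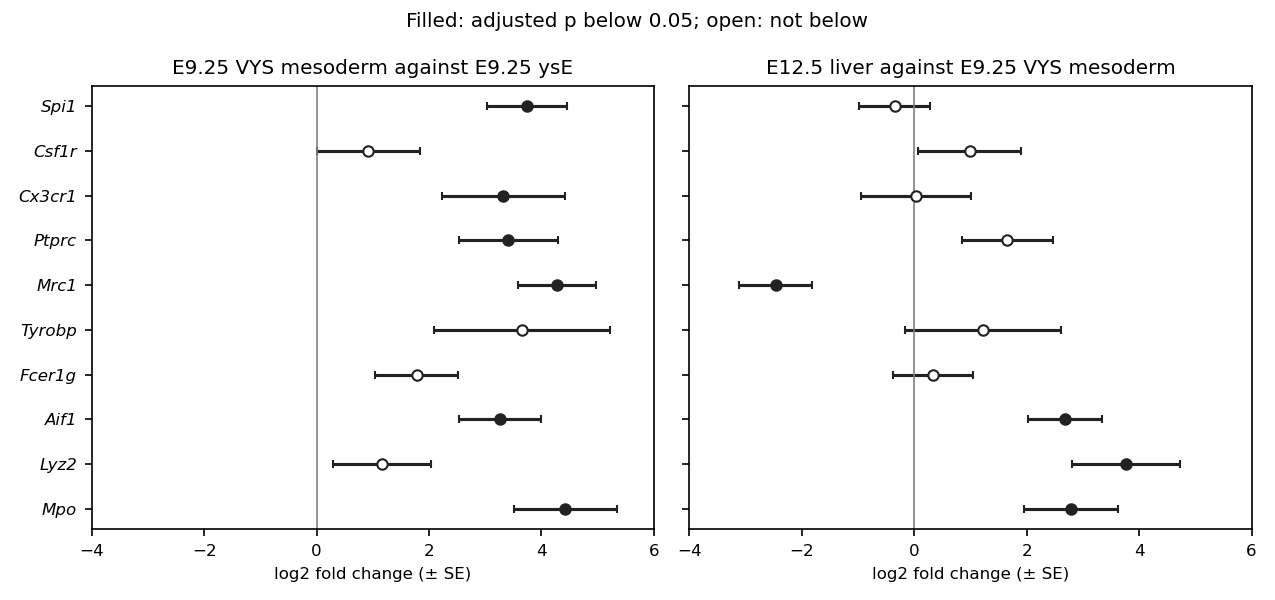
Log2 fold change (x) with its SE for each gene (y) in mesoderm against E9.25 ysE and in liver against mesoderm; filled points have an edgeR adjusted p below 0.05. In the first panel 6 genes are filled and to the right of 0; in the second Lyz2, Mpo and Aif1 are filled to the right and Mrc1 to the left.

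Liver against the single E12.5 ysE library had 8 of 10 members higher (edgeR's quasi-likelihood test, with no replicate of E12.5 ysE; 23.7% of all transcripts called higher and 22.6% lower). Csf1r, at -1.09 ± 1.07 on the log2 scale (edgeR adjusted p = 0.429), was the single member with a negative difference, and Tyrobp, with 1 count in E12.5 ysE, was not called (edgeR adjusted p = 0.0649), a result kept in 11 of 16 alternatives, while DESeq2, the fit of only these groups, the fit with clones as groups and those without d10 clone B or d15 clone A called it higher. Mpo, with 0 counts in E12.5 ysE, was at least 820-fold higher in liver after scaling to library totals and Fcer1g at least 18.7-fold higher, against a floor of 3 counts. Cx3cr1 was called at an adjusted p of 0.0439 in that edgeR test and lost when either library of liver, mesoderm or E9.25 ysE was left out.

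Between E12.5 and E9.25 ysE no member was called by edgeR's quasi-likelihood test (3.9% of transcripts called higher and 4.57% lower, with no replicate of E12.5 ysE). DESeq2 called Csf1r higher and Mrc1 lower. Mrc1, at 0.249 against 2.18 and 2.49 RPKM, gave a log2 fold change of -3.31 with an edgeR adjusted p of 0.0556 and was called without d10 clone B, as Fcer1g was without d10 clone A. The split of all called transcripts was 969 higher and 1137 lower here and 1240 and 876 with relative-log-expression size factors. Over all transcripts the median log2 fold change was -0.21 in this comparison, 0.26 in liver against E12.5 ysE and 0.20 in cystic EBs against liver.

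All members but Csf1r were called lower in cystic EBs than in at least 1 of mesoderm and liver. Against mesoderm 8 of 10 were lower (edgeR's quasi-likelihood test; 15% of transcripts lower and 13.9% higher), with Mrc1 at -5.33 ± 0.547 on the log2 scale (adjusted p = 0.000267) and Mpo at -7.33 ± 0.836 (adjusted p = 0.000436). Without mesoderm A, which leaves a single mesoderm library, Fcer1g, Aif1 and Lyz2 lost their calls, and without mesoderm B Cx3cr1 did as well. Fewer of all transcripts were called lower in those fits too. Against liver 9 of 10 were lower (edgeR; 20.9% of transcripts lower and 24.6% higher), with Mpo at -10.1 ± 0.892 (edgeR adjusted p = 5.05e-05), and Csf1r was not called (edgeR adjusted p = 0.0865). Both contrasts share the cystic EB libraries. Markers of some other cells were lower in cystic EBs too. Against mesoderm 12 of 12 erythroid, 5 of 6 megakaryocyte and 7 of 8 endothelial markers were called lower. Against liver these were 11 of 12, 5 of 6 and 3 of 8. Hepatocyte and endoderm markers had 3 of 7 lower than mesoderm, but 3 lower and 2 higher than liver. Mesenchymal markers had 2 of 5 lower than mesoderm, but 2 higher and 0 lower than liver. Lymphoid markers had 2 and 3 of 6 lower. Mast cell markers had 2 lower and 1 higher of 3 tested in each comparison. The part of these cells in the differences of the members was not tested. Clone B and mesoderm were made with the dUTP protocol and clone A and liver with ScriptSeq. In the fit that keeps the clones apart, clone B alone was set against mesoderm and clone A alone against liver. There 7 members were lower than mesoderm, beside 4639 of 24858 transcripts lower and 4083 higher. Against liver 8 were lower, beside 5854 transcripts lower and 6424 higher. Fcer1g and Tyrobp were no longer called. Library protocol as a term gives this same fit in both comparisons, so tallies over 19 alternatives count it 2 times. The Fcer1g call against mesoderm held in 8 of 19 alternatives (edgeR or DESeq2 adjusted p 0.0159 to 0.213) and the Tyrobp call against liver in 11 of 19 (0.00687 to 0.105). Without d15 clone A, which had the highest Csf1r level of the cystic EBs, Csf1r was also lower than in mesoderm (log2 fold change -1.81, edgeR adjusted p = 0.0177) and liver. From d10 to d15, 0 of the 8 members tested were called (edgeR's quasi-likelihood test, with 0% of transcripts called in either direction). DESeq2 called no member either, beside 11 of 26017 transcripts higher and 0 lower. Csf1r was at 0.657 RPKM at d10 and 3.88 at d15 in clone A, and at 0.325 and 1.27 in clone B. Cx3cr1, Ptprc, Tyrobp, Fcer1g and Lyz2 passed the low-count filter only with the help of their d15 libraries, where they were higher. A median over the members tested would carry that selection, so none is given. Spi1 and Mpo were too low to be tested. Within each clone RPKM was higher at d15 for 7 of the 10 members (Spi1, Csf1r, Cx3cr1, Ptprc, Tyrobp, Fcer1g and Lyz2), and lower in both clones for Mpo. The share of all transcripts that rose in both clones was not computed, so this count has no background. The gain in Tyrobp was 1.14 RPKM in clone A and 0.997 in clone B, and in Ptprc 0.108 and 0.130. With the clone as a replicate block no member was called either.

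Other myeloid genes were grouped by role, and their counts stand beside the 16.9% of all transcripts called higher and 13.7% called lower in mesoderm against E9.25 ysE, and the 17.8% and 21% in liver against mesoderm. Among 9 ligands and cytokine receptors, Csf1, the ligand of Csf1r, was at 3.58 RPKM in mesoderm, 1.72 in liver and 0.789 in E9.25 ysE, and was higher in mesoderm than in E9.25 ysE by 1.86 ± 0.302 (log2 scale, edgeR adjusted p = 0.00170) and lower in liver than in mesoderm (log2 fold change -0.86, edgeR adjusted p = 0.0440). Cx3cl1, the ligand of Cx3cr1, was lower at each step, from 1.20 RPKM (E9.25 ysE) to 0.466 (mesoderm) to 0.0455 (liver; edgeR adjusted p = 0.0253 and 0.00229). Il34, with 1 count in E9.25 ysE against 20 in mesoderm, was not called (edgeR adjusted p = 0.0502). Of these 9 genes, 2 were higher and 1 lower in mesoderm than in E9.25 ysE, the former being Csf1 and Csf2rb, and 2 were higher (Ccr2 and Flt3) and 3 lower in liver than in mesoderm. The other 6 and 4 genes were not called.

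Of 11 myeloid transcription factors, 4 were higher and 3 lower in mesoderm than in E9.25 ysE. Ikzf1, a regulator of blood lineages, reached 9.13 against 0.342 RPKM, and Myb, needed for definitive blood progenitors, reached 1.43 against 0.0845, while Cebpa and Cebpb were lower in mesoderm and 4 genes were not called. In liver against mesoderm 5 were higher, among them Myb at 14.2 RPKM and Cebpa at 5.67, and Maf and Cebpb were lower.

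Of 21 macrophage surface and phagocytic genes, 5 were higher in mesoderm than in E9.25 ysE and none lower (edgeR), and 16 were not called. Lyve1, a hyaluronan receptor of macrophages and of lymphatic and sinusoidal endothelium, was at 146 RPKM in mesoderm, against 6.54 in liver and 5.91 in E9.25 ysE. In liver against mesoderm 6 were higher, Lyve1 was lower and 14 were not called. Timd4, a receptor for dying cells, was at 4.19 RPKM in liver and 0.0195 in mesoderm, and the integrin Itgam at 2.34 and 0.300. Of 12 granule genes 9 were higher in liver and 0 lower (median log2 fold change 4.94). Ngp had 4 counts and Camp 0 in mesoderm, against 1062 and 833 in liver, so Camp was at least 511-fold higher against a floor of 3 counts. In mesoderm against E9.25 ysE only Prtn3, a protease of the same granules as Mpo, was called, at 1.52 against 0.0905 RPKM (edgeR adjusted p = 0.0199). Of 19 leukocyte signalling and oxidase genes 13 were higher in mesoderm than in E9.25 ysE and Cyba and Lcp1 lower, among 18 tested, with the kinase Syk at 2.79 against 0.244 RPKM. In liver 7 were higher than in mesoderm, including Syk and Btk, and Cyba was lower.

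Markers of other cells were measured beside the members. With 16.9% of all transcripts called higher and 13.7% lower in mesoderm against E9.25 ysE, all 12 erythroid and all 6 megakaryocyte markers were higher, 4 of 5 mesenchymal markers were higher and 5 of 7 hepatocyte and endoderm markers lower. Erythroid markers summed to 38133 to 47954 RPKM in mesoderm, 3492 to 6041 in liver and 936 to 1119 in E9.25 ysE, so the E9.25 ysE libraries also held blood transcripts. Mast cell markers summed to 1.92 to 2.76 RPKM in mesoderm and 4.71 to 5.35 in liver, with the defining gene Fcer1a at 0.029 RPKM or below in both, and lymphoid markers to 1.43 to 1.47 and 0.651 to 0.851. The endoderm genes Cubn and Amn were at 81.4 and 25.7 RPKM in mesoderm, so endoderm RNA was present there. The part of these cells in the differences of the members was not tested.

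Each member's level was compared with 14103 gene symbols that reached 1 RPKM in some library, by Pearson r of log2(RPKM + 1) over the 11 libraries, as a description. Nearest to Mrc1 were Clec14a (r = 0.991), Lrrc33 (0.986) and Ptprb (0.986), and nearest to Mpo were Treml1 (0.998), Slamf1 (0.997) and Ppbp (0.997). Csf1r stood nearest to Plod1 (0.968), Acat1 (0.945) and St3gal1 (0.909), each highest in E12.5 ysE. Ptprc was nearest to Rgs18, Il10ra and Ank1, Spi1 to 6030468B19Rik, Gm2061 and Ly6g6f, and Cx3cr1 to Cd53, P2rx1 and Ly6g6f. Tyrobp was nearest to Itgb3, Jak2 and Trpc6, Fcer1g to Loxl3, Pf4 and Serinc3, Aif1 to Slc14a1, Serpinb10-ps and Dock2, and Lyz2 to Acmsd, Dock8 and C1qa. Among the members themselves the lowest r was between Mrc1 and Csf1r (0.160) and the highest between Mpo and Ptprc (0.994). The 11 points include replicates of the same tissue, and the libraries differ in protocol and depth.

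Whole genome bisulfite sequencing gave 2 libraries each of E12.5 ysE, E12.5 liver and d15 cystic EBs from reciprocal crosses of CAST and FVB mice, and no test was made on 2 libraries per tissue. Reads were counted at each CpG and summed over a gene, so a read spanning several CpGs counts at each. Over the gene bodies of the members with at least 10 such reads, the median methylation was 68.9% and 52.9% for ysE. The liver libraries gave 76.9% and 79.1% and the cystic EB libraries 88.3% and 86.2%. Over all genes the medians were 70.6% and 65.0% for ysE, 78.5% and 80.3% for liver, and 86.6% and 82.1% for cystic EBs. The members were within 5 percentage points of all genes in every library but the second of ysE, where 8 members had enough reads.

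Ptprc, Lyz2 and Mrc1 had gene bodies below the median of the members in both ysE libraries. The Ptprc gene body was methylated at 46.9% (of 192 reads) and 31.0% (of 326 reads) in the ysE libraries, at 72.7% and 76.5% in those of liver, and at 88.5% and 89.3% in those of cystic EBs. Lyz2 had 10 of 25 and 5 of 14 reads methylated in ysE (40% and 35.7%, with exact 95% binomial intervals of 21.1% to 61.3% and 12.8% to 64.9%). Liver gave 58.8% and 80% for Lyz2, and cystic EBs 95.1% and 84.6%. For both genes the ysE libraries lay below all others. They were picked for low ysE values, and the share of all genes with this order was not computed. Over all genes the ysE medians were also the lowest.

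Mrc1 stood at 66.4% and 45.3% in the ysE libraries, below 76.4% and 77.1% for liver, while cystic EBs (85.4% and 75.8%) overlapped liver. For Csf1r, whose RNA was highest in E12.5 ysE, ysE gave 71.3% and 60.4%. Liver gave 76.9% and 80% and cystic EBs 88.1% and 93.1%, without overlap between the tissues. The share of all genes in that order was not computed. Cx3cr1 had 93.3% and 66.7% in ysE, a spread that took in both other tissues. Spi1 lay between 75% and 85.8% in all 6 libraries. Mpo lay between 63.8% and 92.5%. Tyrobp, Fcer1g and Aif1 had 7 to 65 reads per library, and the exact 95% interval of Tyrobp in the second ysE library, 4 of 11 reads, ran from 10.9% to 69.2%. These intervals cover counting error only and take the calls of a read at several CpGs as independent. Promoters (windows of 1 kb up- and downstream of the start) held at least 10 reads in 1 to 4 members per library, too few for a comparison.

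**Figure D4:**
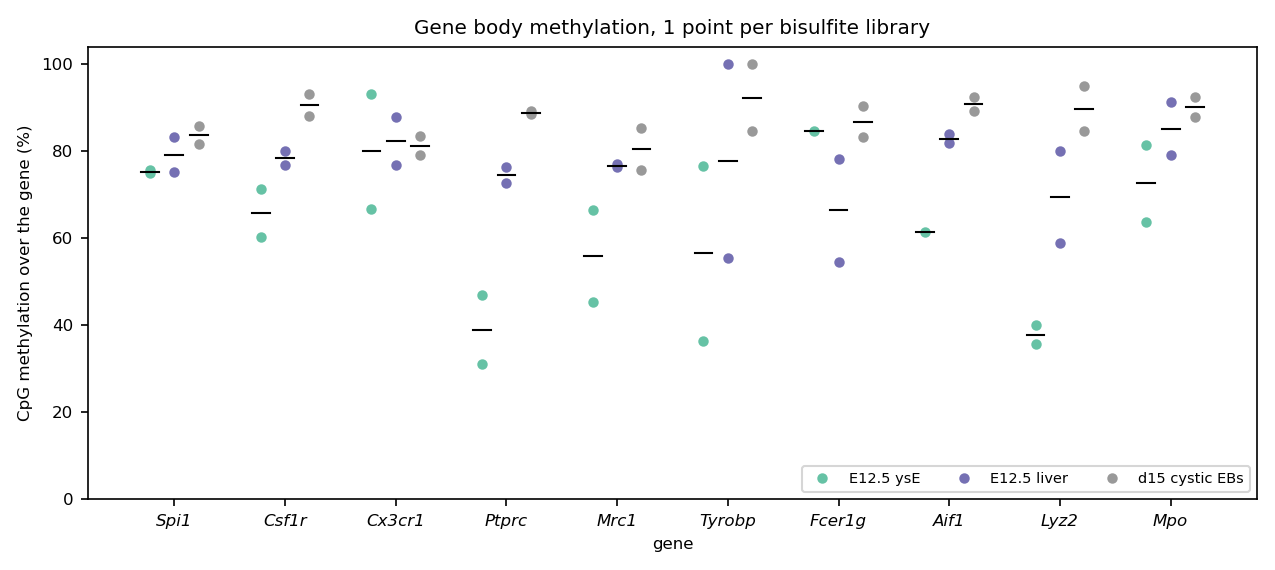
CpG methylation over the gene (y, percent of reads) for each gene (x) in the 2 libraries of E12.5 ysE, E12.5 liver and d15 cystic EBs (points), with the mean of the libraries as a black line, where a library had at least 10 reads. For Ptprc the ysE points, at 31.0% and 46.9%, lie below those of liver and cystic EBs, and Fcer1g and Aif1 have a single ysE point.

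H3K4me3, a histone mark of active promoters, was mapped in 1 library of E12.5 VYS, and its 22343 peaks came from intact yolk sac, both layers together. Of the 7 members with a known start, 5 had a peak within 1 kb of it, beside 45.4% of 27025 genes. Mrc1 had the strongest, with a MACS score of 3100 that exceeded 75.3% of all peaks, then Fcer1g (score 796), Ptprc (678), Cx3cr1 (349) and Lyz2 (159). Aif1 and Mpo had no peak within 1 kb of the start, the nearest lying 3487 and 23228 bases away. Peaks overlapped or lay within 1 kb of the genes Spi1 (2), Csf1r (1) and Tyrobp (2), whose starts could not be placed. Of the 5 peaks at starts, that of Mrc1 alone was in the upper 50% by score, 1 of 7 members beside 35.5% of all genes.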

How the data were processed

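RNA-seq reads were aligned with GSNAP, and the authors made the deposited counts per RefSeq transcript and the RPKM values from them. The library size that scales the RPKM is not given in the sources used here. It was judged from the ratio of counts to RPKM and set against the count total, with d10 clone A as 1. This gave 1.17 and 1.06 in liver and 0.883 and 0.925 in mesoderm. RPKM therefore places liver lower against mesoderm than CPM does. For the bisulfite libraries the authors deposited percent methylation with the number of reads per CpG, called by BisSNP. The deposited H3K4me3 peaks carry the score of MACS 1.4.2, -10 log10 of a p-value against input. Coordinates are on mm10. Whether counting used strand is not stated, and for the non-stranded E12.5 ysE library reads of overlapping genes cannot be told apart.

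The member genes and gene lists were chosen with earlier results of these data known. Counts were scaled by TMM (factors 0.766 to 1.21), filtered with filterByExpr and fitted with edgeR 4.0.16 in R 4.3.3 as 5 tissues, the 4 cystic EB libraries as 1, with a biological coefficient of variation of 0.399. Standard errors are implied by the F statistic. Scaled folds use summed counts over library totals with a floor of 3 counts where a group had none. Methylation was the percent of methylated reads, counted at each CpG and summed over a gene, with at least 10 such reads. A promoter or peak start is the most upstream RefSeq start. Other values were computed in Python 3.11.15. On simulated data with known changes, edgeR recovered 73% of 4-fold changes in liver against mesoderm (23838 transcripts). In mesoderm against E9.25 ysE (23835) it recovered 69%, and 8% of 2-fold changes in both. The simulation gave every transcript the same spread, smaller than the 0.399 fitted to the data, so these shares overstate recovery here.

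Genes named beyond the 10 members come from the 2 with the lowest adjusted p in each direction per list in the first comparisons, Csf1, Il34 and Cx3cl1, and the 3 genes most like each member. Lyz1, Fcer1a and the endothelial list are named outside this rule, the first as a paralog of Lyz2 and the others as markers of other cells. Alternatives were relative-log-expression size factors, DESeq2 1.42.0, no low-count filter, other groupings, library protocol as a term, a replicate block and leaving out each library. Where both were run, except in liver against mesoderm, the protocol term and the grouping by clone are the same fit, yet tallies count both. Differences of A minus B had correlations of -0.0859 for E9.25 ysE with mesoderm and 0.174 for mesoderm with liver. These values cannot decide whether both yolk sac layers under a letter came from the same litters, which is not known. EB letters are clones, with a correlation of 0.638 between d10 and d15. Exon counts and the repeat table were not used here.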

Additional observations from a re-analysis of the deposited data

Results flagged for a closer look

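Changes from d10 to d15 of opposite sign in the 2 EB clones were seen for 2 genes, each with 1 library per clone and day, so the difference between clones was not tested. Mrc1 changed by -0.269 RPKM in clone A and by 1.33 RPKM in clone B. Aif1 changed by 0.113 RPKM in clone A and by -0.006 RPKM in clone B, from 7 to 12 counts per library. The other 8 members changed in the same direction in both clones, 7 of them upward, and the share of all transcripts doing so was not computed. No member had a cystic EB library far from the other 3 by Dixon's criterion at 95%, over 10 genes.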

How the results depend on the processing

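In liver against mesoderm 6 members were higher when only the groups compared were fitted (6277 of 22281 transcripts higher and 7091 lower). With library protocol as a term 0 were higher (3385 of 24858 transcripts higher and 4206 lower). Leaving out a library of liver or mesoderm lost calls among members and among all transcripts. In mesoderm against E9.25 ysE the count was 10 with only the groups compared and 2 to 7 over leave-outs. More of all transcripts were called higher with only the groups compared, and fewer without E9.25 ysE A or B. Liver against the single E12.5 ysE library called Csf1r lower with only the groups compared, a fit in which more of all transcripts were called too. Between the ysE stages, with a single E12.5 ysE library, DESeq2, the groups-only fit and the fit with clones as groups called Csf1r higher. These fits, that without the filter and some leave-outs also gave lower calls. In the groups-only fit more of all transcripts were called in both directions than in the main fit. Cystic EBs had 4 to 9 members lower than mesoderm and 7 to 10 lower than liver over leave-outs, and 0 changed by day. The calls over all transcripts moved too. Fewer were lower than mesoderm without mesoderm A or B, and fewer were lower than liver without liver A or B. Without d15 clone A, 3635 of 24847 transcripts were lower than mesoderm and 5505 lower than liver. With all libraries these were 3727 and 5185 of 24858.

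Differences that changed sign were, in liver against mesoderm, Spi1 (-1.01 to 0.11 over leave-outs, the latter without liver A), Cx3cr1 (-0.35 without mesoderm A to 0.54 without mesoderm B; -0.19 without liver A and -0.027 with the protocol term), Csf1r (-0.65 with the protocol term) and Mpo (-0.21 with the protocol term), of which Mpo alone had been called; between ysE stages Spi1 (-1.16 to 0.16) and Tyrobp (-3.11 to 0.036), both positive without E9.25 ysE A; and between days Mrc1 (-0.27 without d10 B to 2.32) and Aif1 (-0.66 without d15 A to 1.38). The cause was not tested. Of 1144 values, 1038 kept direction and side of the threshold, 61 lost and 35 gained a call and 10 changed sign. The replicate block changed no member call; it left 3 and 1 called in liver against mesoderm and 6 in mesoderm against E9.25 ysE, and 0 by day.

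Over leave-outs gene body medians were 52.9% to 68.9% in ysE, 76.9% to 79.1% in liver and 86.2% to 88.3% in cystic EBs, and promoter medians 68.1% to 75%, 69.1% to 72.4% and 88.9% to 91.7%. Promoter medians moved to 67.9% (liver), 58.2% (ysE) and 86.0% (cystic EBs) with at least 5 reads, to 60.5% (liver) and 95.8% (cystic EBs) with at least 20, to 58.6% (liver) with 500 bases, and to 59.1% (ysE) and 85.2% (cystic EBs) with 2000 bases. With the upper 50% of peaks, 1 of 7 members had a peak at its start, beside 35.5% of all genes. With log2(RPKM + 0.1), 11 of the 30 nearest genes were shared. Depth limits Mpo, Fcer1g, Tyrobp and Spi1 in E12.5 ysE, at 0 to 3 counts.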
